A study of Mus musculus with 8 samples.

Results

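The genes described here are 29 enzyme subunits of glycolysis, lactate formation, the pyruvate dehydrogenase complex and the citric acid cycle, together with the cytosolic malate dehydrogenase Mdh1. They were taken by gene name from the gene tables, and the 29 names matched 30 of 54532 rows, because Aldoa names a pair of rows. Their values did not enter the choice. The KO group is Nsun5-KO mice, male and 3 months old, and the WT group is wild-type males of that age from the same litter. The labels give 5 mice per genotype without tying a library to a mouse, and give neither the strain nor how the allele was made. Each genotype has 4 footprint libraries from brain, which hold the stretches of mRNA that a ribosome covered during nuclease digestion, and 4 mRNA libraries whose names match them. The labels do not say that libraries came from separate animals, so each p-value reflects library-to-library spread that may be technical.

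Glycolysis splits glucose into pyruvate in the cytosol and yields some ATP and NADH directly. The pyruvate dehydrogenase complex turns pyruvate into acetyl-CoA inside mitochondria, and the citric acid cycle oxidises that acetyl group and supplies electrons to the respiratory chain. Neurons draw most of their ATP from this route, while glia export part of their pyruvate as lactate. Nsun5 is an enzyme that methylates a cytosine of the large ribosomal subunit's RNA, so the comparison asks whether its loss goes with different mRNA levels, footprint levels or footprints per mRNA of the enzymes that fuel the brain.

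The mRNA libraries held 15.6 M to 17.8 M gene-assigned counts (M, mega). The footprint libraries held 0.586 M to 1.30 M in KO and 1.20 M to 3.49 M in WT, so the footprint values of KO rest on fewer reads. The protein-coding share of these counts differed, from 369802 of 1236851 in KO library 1 to 791699 of 1201263 in WT library 1. The factors that rescale footprint library sizes ran from 0.676 to 1.493 in KO and from 0.799 to 1.501 in WT. Footprint levels compared between libraries therefore lean on this scaling. The 29 enzymes together had 4099 to 16348 footprint counts per KO library and 15064 to 29992 per WT library. Nsun5 itself had 102, 124, 83 and 110 mRNA counts in the libraries labelled KO, against 91, 82, 103 and 109 in those labelled WT. The gene-level count therefore does not separate the groups, and KO and WT stand below for the libraries so labelled. Neuron, astrocyte, myelin, microglia and endothelium markers were detected in every list, with all members above 0, as the label brain requires. The summed skeletal muscle markers, 4 genes, stayed at 8.80 to 12.9 CPM (counts scaled to a common library size) in KO mRNA and 7.06 to 10.6 CPM in WT mRNA. WT mRNA libraries 1 and 2 stood apart by genes of single brain regions. The dopamine transporter Slc6a3 had 38, 2, 4 and 9 counts in KO, against 1302, 229, 3 and 6 in WT, and the hypothalamic peptide gene Hcrt had 1, 2, 14 and 0 counts in KO, against 601, 166, 1 and 0 in WT.

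The 4 promoter windows printed here show sequence around the start of selected enzyme genes. The letters ACGTG and GCGTG are the core of the hypoxia response element, which the hypoxia-inducible factors bind and for which Ldha and Pgk1 are textbook target genes. The window of each sequence runs from 250 bases before to 50 bases after a RefSeq gene start on build GRCm38.p6, and is printed 5′ to 3′ on the gene's own strand. Capitals mark either of these cores or the estrogen-related receptor element TNAAGGTCA on either strand. Ldha is shown because its window holds the most cores of these 4, Pgk1 because its mRNA had the lowest p of the enzymes, Gapdh because its mRNA count was unlike the others, and Tpi1 because it alone holds the receptor element.
Ldha chr7:46845554-46845853 (+): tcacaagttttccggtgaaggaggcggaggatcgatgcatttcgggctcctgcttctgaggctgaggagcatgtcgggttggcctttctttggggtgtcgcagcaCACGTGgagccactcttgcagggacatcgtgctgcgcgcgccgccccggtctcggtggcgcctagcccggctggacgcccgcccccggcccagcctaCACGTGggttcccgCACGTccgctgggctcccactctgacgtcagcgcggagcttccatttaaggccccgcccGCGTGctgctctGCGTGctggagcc
Pgk1 chrX:106186850-106187149 (+): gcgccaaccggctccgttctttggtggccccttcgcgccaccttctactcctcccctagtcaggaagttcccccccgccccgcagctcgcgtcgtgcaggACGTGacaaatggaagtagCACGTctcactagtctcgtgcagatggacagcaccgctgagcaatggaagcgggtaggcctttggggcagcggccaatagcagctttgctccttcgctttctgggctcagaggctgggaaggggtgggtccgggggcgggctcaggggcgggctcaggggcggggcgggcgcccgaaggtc
Gapdh chr6:125165724-125166023 (-): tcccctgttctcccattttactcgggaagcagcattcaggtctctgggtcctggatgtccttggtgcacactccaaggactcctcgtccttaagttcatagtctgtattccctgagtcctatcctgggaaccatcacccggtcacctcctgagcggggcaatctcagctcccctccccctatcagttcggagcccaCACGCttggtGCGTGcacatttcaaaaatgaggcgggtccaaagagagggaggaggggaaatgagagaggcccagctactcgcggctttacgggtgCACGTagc
Tpi1 chr6:124814109-124814408 (-): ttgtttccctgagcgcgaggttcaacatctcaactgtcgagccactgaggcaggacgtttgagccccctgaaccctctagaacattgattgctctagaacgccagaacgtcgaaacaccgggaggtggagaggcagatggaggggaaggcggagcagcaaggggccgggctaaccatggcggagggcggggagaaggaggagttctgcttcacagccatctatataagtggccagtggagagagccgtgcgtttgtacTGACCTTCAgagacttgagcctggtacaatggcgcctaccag
The printed Ldha window held 7 matches to a hypoxia core, where CACGTG counts on both strands because it reads the same on each. Another Ldha window, not printed, held 2. Gapdh held 3, Pgk1 2 and Tpi1 none, with 1 receptor element in Tpi1. Of the 29 enzymes 28 matched a RefSeq entry by symbol, with 43 windows in all. In 19 of these 28 genes (67.9%) at least 1 window held ACGTG or GCGTG, against 46.7% of 27025 genes with a window of that length. ACGTG was in 42.9% of the enzyme genes and 21.8% of all genes, GCGTG in 53.6% and 35.2%, and TNAAGGTCA in 3.57% and 1.43%. The enzymes' windows were also richer in G and C, with a median of 59.7% and 20 CpG pairs, against 52.7% and 7 over all 32851 windows. They also had more windows per gene, 43 over 28 genes against 32851 over 27025, and a gene counts if any window matches. The motif shares were not corrected for base composition or window number, and a match is no evidence that a factor binds there.

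By mRNA level the enzymes lay in the upper part of the protein-coding genes, with 1 exception. RPKM (reads per kilobase of the deposited gene length, scaled to 1 library size per column) is used wherever genes are compared with each other. For phosphofructokinase, CPM is given beside it. Aldoa, the aldolase that splits fructose bisphosphate, had the highest mRNA level, at 510 ± 25.9 RPKM in KO and 485 ± 32.1 in WT (SD, n = 4 each). Mdh1, which passes reducing equivalents between cytosol and mitochondria, followed at 378 ± 21.2 RPKM in KO and 353 ± 13.5 in WT. Ldhb, the lactate dehydrogenase subunit typical of oxidative cells, was next at 338 ± 31.7 RPKM in KO and 322 ± 23.7 in WT. Neighbours in this order often overlapped within their spread, as Pkm, Tpi1 and Pgk1 did at 222 to 250 RPKM in KO and 195 to 236 RPKM in WT. At the low end stood Dlst, a subunit of the oxoglutarate dehydrogenase complex, at 13.2 ± 0.346 RPKM in KO and 12.8 ± 0.677 in WT. Averaged over all libraries, 28 of the 29 enzymes lay at or above percentile 82.9 of the 22046 protein-coding genes in mRNA, a set that includes genes with little or no mRNA.

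Footprint levels kept much of that order, with Mdh1 first at 554 ± 15.0 RPKM in KO and 632 ± 54.1 in WT (SD, n = 4 each). Ldhb at 299 ± 18.7 in KO and 298 ± 43.9 in WT, and Aldoa at 274 ± 27.1 in KO and 266 ± 30.9 in WT, did not differ from each other beyond their spread. Eno2, the neuronal enolase, came next at 176 ± 31.7 RPKM in KO and 213 ± 35.7 in WT. The lowest footprint levels were those of Pdhb, Dlat and Dlst, at 8.12, 6.52 and 4.57 RPKM in KO and 8.36, 7.49 and 4.01 RPKM in WT. The RPKM tables divide by the whole gene length, while ribosomes cover the coding part alone, so the order of footprint levels also moves with the length of untranslated sequence.

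**Figure D1:**
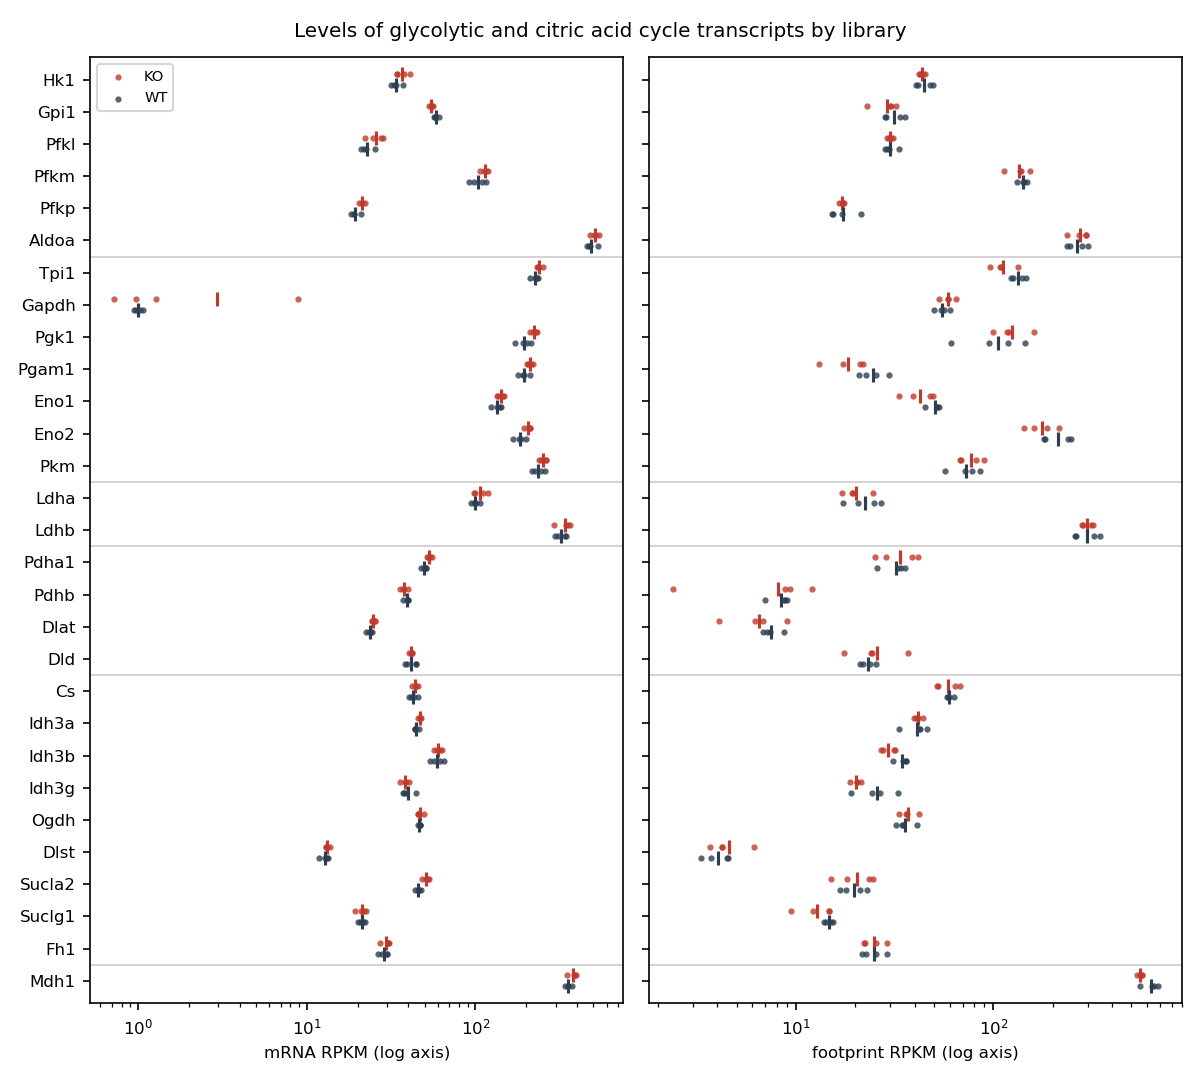
Deposited RPKM of 29 enzymes on log axes, mRNA on the left and footprints on the right. Each point is 1 library and each tick the mean of 4, KO in red above WT in dark blue, with grey lines between pathway steps. Gapdh mRNA is the 1 enzyme far below the rest, at about 1 RPKM in 7 of 8 libraries and 8.85 in KO library 4, while its footprints lie at 50.0 to 64.3 RPKM.

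Gapdh, the glyceraldehyde-3-phosphate dehydrogenase that is a common loading control, was the exception. The gene lies on chromosome 6 at chr6:125161715-125166467, minus strand, on the files' build mm10. Its mRNA counts were 85, 51, 65 and 651 in KO, against 74, 62, 74 and 71 in WT. All libraries except KO library 4 lay between 51 and 85 counts, so the groups overlapped. Its footprint counts were 226, 434, 132 and 257 in KO, against 459, 756, 667 and 576 in WT, from libraries of far lower total depth. In CPM the footprints were 247 ± 18.8 in KO and 234 ± 17.6 in WT (SD, n = 4 each), a steady level. Gapdh therefore ranked 29 of 29 in mRNA and 10 of 29 in footprints.

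The ratio of footprint CPM to mRNA CPM for Gapdh was 50.8, 74.8, 61.9 and 6.72 in KO, against 58.8, 57.7, 53.1 and 52.8 in WT. The other 28 enzymes had mean ratios of 0.0896 to 1.5 in KO and 0.130 to 1.82 in WT. The WT ratio of Gapdh lay at percentile 99.7 of all genes tested. The mouse genome holds many processed copies of Gapdh, and how reads that fit several places were counted is not given in the sources used here. The 2 rows named as Gapdh copies held 17 mRNA counts in all, against 1133 for Gapdh. The Gapdh mRNA count is therefore uncertain as a level, and its use as a loading control in these mRNA counts would rest on 51 to 85 reads in 7 of 8 libraries.

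KO library 4 stood apart in other genes too. In it 6 genes with at least 5 CPM exceeded 3 times the level of every other mRNA library, and 4 of them were annotated as processed pseudogenes. Atp6v0c-ps2 had 20, 22, 24 and 2581 counts in KO, against 16, 20, 30 and 36 in WT. Rps2-ps10 had 12, 13, 18 and 1848 counts in KO, against 21, 11, 22 and 23 in WT. The other 7 mRNA libraries had 0 to 6 such genes each and no pseudogene among them. The edgeR log2 fold change of Gapdh mRNA was 1.55 ± 0.71 (SE; adjusted p = 0.478, Benjamini-Hochberg), and it was −0.04 without KO library 4. What raised the count in that library was not tested.

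**Figure D2:**
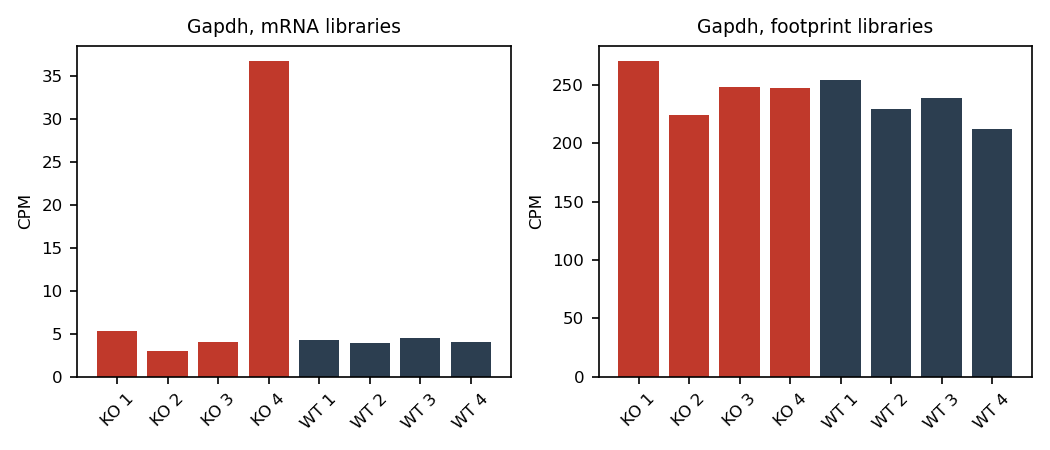
Gapdh CPM in each library, KO bars in red left of WT bars in dark blue, mRNA in the left plot and footprints in the right plot, on linear axes that start at 0 and differ in scale. KO library 4 reaches 36.7 CPM in mRNA against at most 5.31 in the others, and no footprint library stands apart.

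Between genotypes, no enzyme passed in mRNA. Of the 30 rows tested none had an adjusted p under 0.05 (edgeR quasi-likelihood test, Benjamini-Hochberg over 13058 genes), as was true of all genes tested (0.0%), while DESeq2 called 75 genes overall and none of the enzymes. At an unadjusted p under 0.05, 2 enzymes were called, Pgk1 and Sucla2, where 10.5% of all genes were. Both were higher in KO, as were 5.32% of all genes. Dropping WT library 2 left a count of 0 and dropping WT library 4 gave 4, the extremes over single libraries. It was 1 without WT libraries 1 and 2, and 0 with the replicate number as a block. The KO and WT values did not overlap for 1 row, Gpi1, against 5.59% of all genes. It was lower in KO, as were 2.74% of all genes. The enzymes' differences were small. The 95% interval lay within a 1.25-fold change for 26 of 30 rows, against 43.8% of all genes, and within 1.5-fold for 28 rows, against 79.0%. The exceptions at 1.5-fold were Gapdh and the second Aldoa row, a short gene model with 9 to 23 counts per library. Intervals narrow with read depth, and the median SE was 0.067 for these rows against 0.108 over all genes. The shares within an interval thus do not show that the enzymes were steadier than other genes.

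The fitted values leaned toward higher mRNA in KO without passing. With 1 row per name, 23 of 29 enzymes were above 0, where 48.6% of all genes were, and the median log2 fold change was 0.06, against −0.01 over all genes. Among the 15 glycolytic and lactate enzymes 14 were above 0, with a median of 0.10. The 4 pyruvate dehydrogenase subunits had a median of 0.02 and the 9 cycle enzymes one of 0.03. Without Gapdh, the glycolytic mean log2 CPM was 8.93 to 9.04 in KO libraries and 8.81 to 8.99 in WT libraries, which overlap. Without WT libraries 1 and 2, 20 of 29 enzymes were above 0 and 10 of the 14 glycolytic enzymes other than Gapdh. Summed neuron markers were 6283 to 6836 CPM in KO and 5634 to 5905 CPM in WT mRNA, and summed myelin markers 4195 to 5721 CPM in KO and 6497 to 7039 CPM in WT, both without overlap. All other marker lists overlapped in mRNA, as excitatory neuron markers did at 3569 to 4628 CPM in KO and 3095 to 3992 CPM in WT. In footprints the neuron markers overlapped too, at 3243 to 3584 CPM in KO and 3002 to 4647 CPM in WT, while the myelin markers did not. The part of cell composition in the enzymes' values was not tested, and in whole tissue a different number of cells and a different amount of RNA per cell cannot be told apart.

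In the upper, hexose part of glycolysis, Hk1, the hexokinase that traps glucose in brain cells, had 314 ± 25.4 mRNA CPM in KO and 293 ± 20.4 in WT (SD, n = 4 each). The phosphofructokinase subunits set the committed step. Their mRNA log2 fold changes were 0.16 ± 0.09 for Pfkl, 0.11 ± 0.08 for Pfkm and 0.12 ± 0.06 for Pfkp (SE), with adjusted p of 0.566, 0.674 and 0.547 (edgeR). Gpi1, which converts glucose 6-phosphate to fructose 6-phosphate, had 363, 342, 356 and 353 mRNA CPM in KO, against 379, 373, 375 and 397 in WT. Every KO library lay below every WT library, the 1 enzyme for which this held in mRNA. The difference was −0.11 ± 0.06 in log2 (SE; adjusted p = 0.529, edgeR), and its footprints overlapped at 151 to 213 CPM in KO and 186 to 236 CPM in WT.

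In the lower, triose part all 7 fitted mRNA values were above 0, where 48.6% of all genes were, but Gapdh was −0.04 without KO library 4 and Pkm −0.02 without WT libraries 1 and 2. Pgk1, the first ATP-yielding kinase of the pathway, is X-linked and lies at chrX:106187100-106203699 on mm10, plus strand. It had 521, 510, 493 and 475 mRNA CPM in KO, against 436, 389, 459 and 483 in WT. The groups overlapped through WT library 4 and KO library 4. Its log2 fold change was 0.18 ± 0.07 (SE; unadjusted p = 0.0384, adjusted p = 0.456, edgeR), and it was 0.08 without WT libraries 1 and 2. Eno2 had 989, 986, 907 and 975 mRNA CPM in KO, against 798, 863, 893 and 947 in WT, with a log2 fold change of 0.14 ± 0.07 (SE; adjusted p = 0.495, edgeR). It too overlapped, since KO library 3 lay below WT library 4.

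Pyruvate dehydrogenase joins a decarboxylase of Pdha1 and Pdhb, the acetyltransferase Dlat and the dehydrogenase Dld. Their mRNA log2 fold changes ran between −0.07 for Pdhb and 0.08 for Pdha1. In the cycle, Sucla2, the ATP-forming subunit of succinyl-CoA ligase, had 204, 208, 192 and 212 mRNA CPM in KO, against 193, 183, 188 and 175 in WT. The groups overlapped only between KO library 3 and WT library 1, at 191.9 and 193.0 CPM. The log2 fold change was 0.14 ± 0.06 (SE; unadjusted p = 0.0393, adjusted p = 0.459, edgeR). Its partner Suclg1 had −0.02 ± 0.07, Cs, the citrate synthase, 0.03 ± 0.06, and Fh1, the fumarase, 0.04 ± 0.07. Ogdh, the oxoglutarate dehydrogenase, had 255 ± 9.42 mRNA CPM in KO and 257 ± 3.26 in WT (SD, n = 4 each).

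No enzyme passed in footprints either. Of 29 rows tested none had an adjusted p under 0.05 (edgeR over 8476 genes; 0.0% of all genes), none had an unadjusted p under 0.05, where 5.52% of all genes did, and DESeq2 called 4 genes overall and no enzyme. In none were the KO and WT values free of overlap, against 3.61% of all genes. The median log2 fold change was −0.02 and 11 of 29 were above 0, where 49.6% of all genes were. Without WT libraries 1 and 2 the median was 0.02, with 15 of 29 above 0. The count above 0 was 14 with DESeq2 or RLE scaling and 7 with no filter, so this lean depended on the processing. The 95% interval lay within a 2-fold change for all 29 rows, against 62.8% of all genes, and within 1.5-fold for 19, against 20.6%. Here too the enzymes' median SE was lower, at 0.176 against 0.294 over all genes. The mRNA log2 fold change of each enzyme lay inside its footprint interval, except for Gapdh and Pgam1. For Pgam1 it was 0.10, against a footprint interval of −0.83 to 0.04. For Gapdh it was 1.55, which rests on KO library 4, against −0.24 to 0.40. Differences as small as those of the other enzymes in mRNA were not detectable in footprints at this depth.

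The lowest footprint p belonged to Pgam1, the mutase that moves the phosphate of phosphoglycerate. It had 32.3, 40.8, 24.5 and 39.4 footprint CPM in KO, from 13 to 79 reads, against 42.7, 55.5, 39.4 and 47.6 in WT, from 77 to 183 reads. Only WT library 3, at 39.40 CPM, lay below the highest KO library. The log2 fold change was −0.40 ± 0.20 (SE; unadjusted p = 0.0693, adjusted p = 0.881, edgeR). Tpi1, the triose isomerase, had 270, 304, 307 and 371 footprint CPM in KO, against 349, 411, 355 and 395 in WT, a log2 fold change of −0.27 ± 0.17 (SE; adjusted p = 0.881). KO library 4 lay inside the WT range and the other KO libraries below it. Pgk1 had 366, 275, 230 and 267 footprint CPM in KO, against 218, 333, 275 and 140 in WT, with as wide a spread within each group as between them.

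The isocitrate dehydrogenase of the cycle is built of Idh3a, the catalytic chain, with Idh3b and Idh3g, and it holds more alpha than beta or gamma chains. Their mRNA levels did not follow that order, at 46.7, 60.1 and 38.1 RPKM in KO and 44.6, 59.4 and 39.6 RPKM in WT. Their footprint levels did, at 41.4, 29.4 and 20.2 RPKM in KO and 40.9, 34.5 and 25.7 RPKM in WT, where the ranges of Idh3a and Idh3b overlapped. Idh3a had 0.904 footprint CPM per mRNA CPM in KO and 0.930 in WT, Idh3b 0.50 in KO and 0.592 in WT, and Idh3g 0.541 in KO and 0.660 in WT. Idh3g footprints were 51.4, 58.9, 56.4 and 55.7 CPM in KO, against 67.1, 73.8, 52.7 and 91.1 in WT, a log2 fold change of −0.35 ± 0.18 (SE; adjusted p = 0.881, edgeR). The groups overlapped through WT library 3, and dropping that library gave −0.47, while dropping WT library 4 gave −0.20. In pyruvate dehydrogenase, whose first enzyme holds equal numbers of Pdha1 and Pdhb chains, the footprint levels were unequal, at 33.4 and 8.12 RPKM in KO and 32.1 and 8.36 RPKM in WT. The untranslated share of each gene length was not corrected for in these levels.

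**Figure D3:**
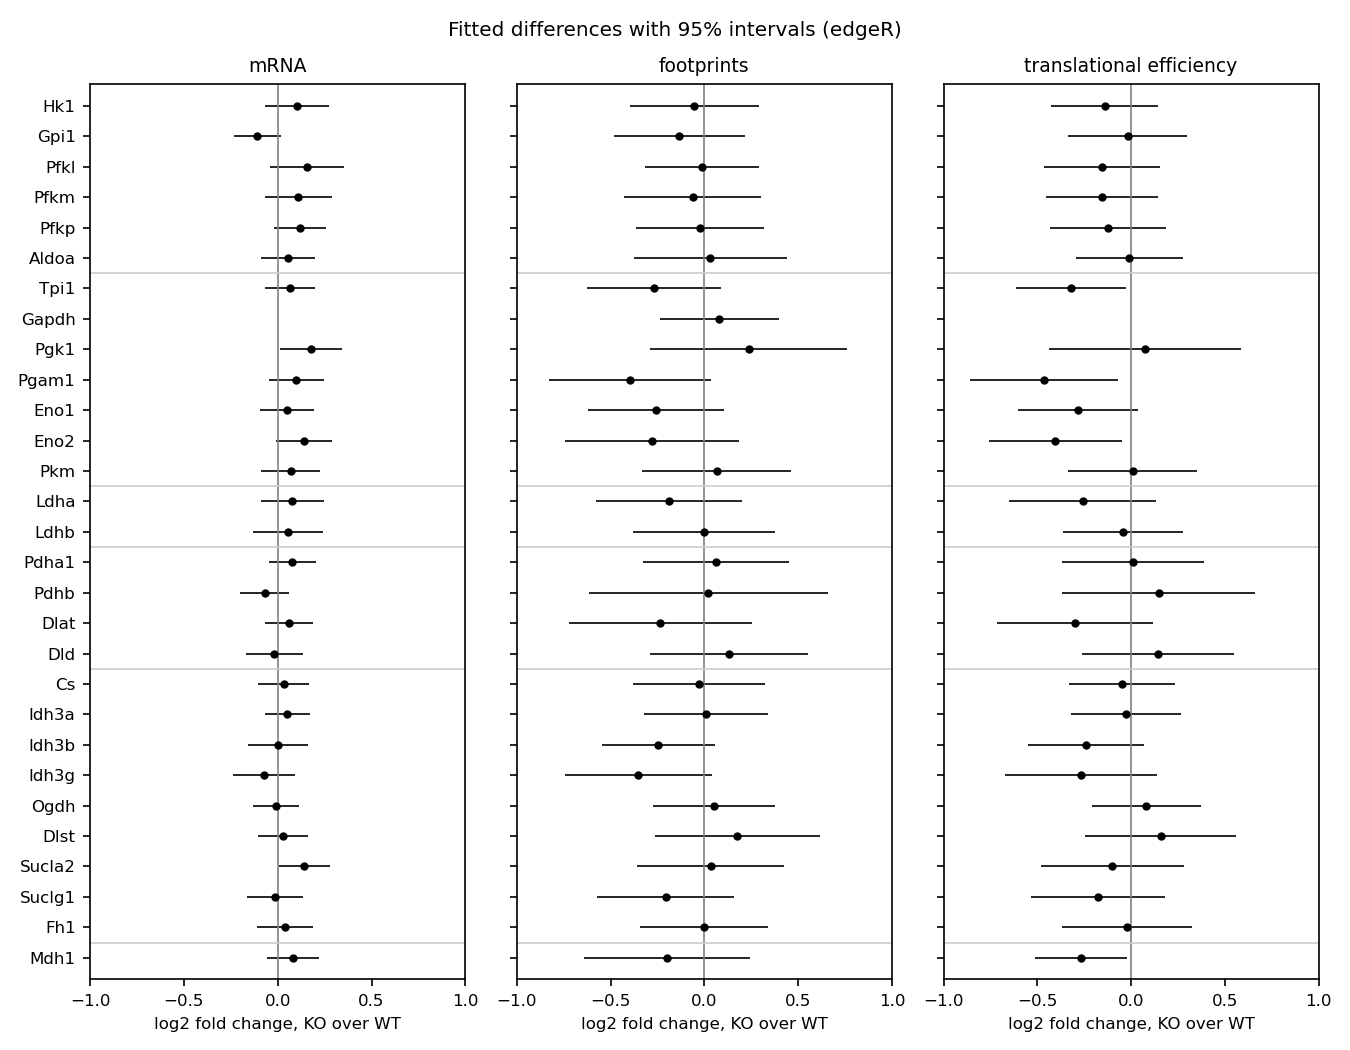
The edgeR log2 fold change of KO over WT with its 95% interval for each enzyme, in mRNA, footprints and translational efficiency, from 4 KO and 4 WT libraries of each kind. Gapdh is drawn for footprints alone, because its other values rest on KO library 4, and none of the values drawn passed the adjusted threshold.

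Translational efficiency, footprints relative to mRNA, was tested as the interaction of genotype and library kind. None of the 29 enzymes passed (edgeR over 9673 genes; 0.0% of all genes), while DESeq2 called 150 genes overall and no enzyme. At an unadjusted p under 0.05, 5 enzymes were lower in KO, or 17.2% of them, where 5.55% of all genes were, and no enzyme was higher. The 5 were Pgam1, Eno2, Tpi1, Mdh1 and Gapdh. In either direction 10.8% of all genes were called. The count of 5 depended on single libraries. It was 0 without WT library 2, 4 without WT library 1 or KO library 2, and 2 without any 1 of the other 5 libraries. It was 1 without WT libraries 1 and 2, and 3 with the replicate number as a block. The model fits 1 spread per gene over mRNA and footprint libraries together. Its SE was below that of the footprint fit alone for Mdh1, at 0.12 against 0.20, and Eno2, at 0.17 against 0.22. The same held for Tpi1, at 0.14 against 0.17, and Pgam1, at 0.19 against 0.20, but not for Gapdh, at 0.66 against 0.15. The unadjusted p of the genes with the lower SE may therefore be too small. The Gapdh value, −1.46 ± 0.66 (SE), was 0.12 without KO library 4. The KO and WT ratios did not overlap for Pgam1 alone, lower in KO, against 4.54% of all genes in either direction and 2.74% lower in KO. Of 29 enzymes 22 were below 0, where 50.0% of all genes were, and the median was −0.12, against 0.00 over all genes. It was −0.05 without WT libraries 1 and 2, with 17 of 29 below 0. Neuron markers moved the same way. The 6 neuron genes had a median log2 fold change of 0.10 in mRNA, with 5 higher in KO, and −0.11 in footprints, with 1 higher. The 6 excitatory neuron genes had medians of 0.38 in mRNA, with 6 higher, and −0.16 in footprints, with 1 higher. Other lists also had lower medians in footprints than in mRNA. These were astrocyte (−0.10 and −0.05), microglia (−0.14 and −0.07), endothelium (−0.29 and −0.09) and myelin markers (−0.44 and −0.42). Choroid plexus, erythrocyte and skeletal muscle markers went the other way, with 1 or 2 genes tested in footprints. None of the marker genes passed, and their part in the enzymes' values was not tested.

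Pgam1 had 0.0823, 0.108, 0.0609 and 0.107 footprint CPM per mRNA CPM in KO, against 0.118, 0.168, 0.111 and 0.122 in WT. Its log2 fold change was −0.46 ± 0.19 (SE; unadjusted p = 0.0231, adjusted p = 0.382, edgeR). All KO libraries were below all WT libraries, the nearest being 0.108 and 0.111. It also had the fewest footprints per mRNA of the 29 enzymes. Eno2 had ratios of 1.04, 0.911, 0.755 and 0.790 in KO, against 1.09, 1.39, 1.29 and 0.937 in WT, with a log2 fold change of −0.40 ± 0.17 (SE; adjusted p = 0.402). Only KO library 1 lay within the WT range.

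Tpi1 ratios were 0.392, 0.477, 0.472 and 0.569 in KO, against 0.539, 0.705, 0.564 and 0.604 in WT, a log2 fold change of −0.32 ± 0.14 (SE; adjusted p = 0.420, edgeR). Mdh1 ratios were 1.41, 1.46, 1.64 and 1.48 in KO, against 1.51, 1.95, 1.96 and 1.85 in WT, a log2 fold change of −0.27 ± 0.12 (SE; adjusted p = 0.422, edgeR). In both genes 1 KO library reached into the WT range, which otherwise lay above. Leaving out each library in turn kept these 4 genes below 0, between −0.58 and −0.32 for Pgam1, −0.51 and −0.32 for Eno2, −0.43 and −0.24 for Tpi1, and −0.35 and −0.23 for Mdh1. The footprint and mRNA libraries of a number were joined by name for these ratios, and the test itself does not use that link.

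Apart from Gapdh, the ratio ranged over an order of magnitude between enzymes in both genotypes. Mdh1, at 1.5 ± 0.0989 in KO and 1.82 ± 0.210 in WT, and Cs, at 1.37 ± 0.214 in KO and 1.43 ± 0.0708 in WT, were the highest (SD, n = 4 each). Hk1, Pfkm and Pfkl followed at 1.20 to 1.22 in KO and 1.34 to 1.39 in WT. Pgam1 at 0.0896 ± 0.0226 in KO and 0.130 ± 0.0258 in WT, Ldha at 0.192 ± 0.0282 in KO and 0.228 ± 0.0437 in WT, and Pdhb at 0.218 ± 0.108 in KO and 0.217 ± 0.0278 in WT were the lowest. Pgam1 and Eno2, which act at consecutive steps, had 0.0896 and 0.874 in KO and 0.130 and 1.18 in WT. Whether reads are shared with copies of these genes was not tested. The rows named as copies of Pgam1 held 510 mRNA counts against 49741 for Pgam1, those of Tpi1 1293 against 85967, and Eno1b 2816 against 99795 for Eno1.

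**Figure D4:**
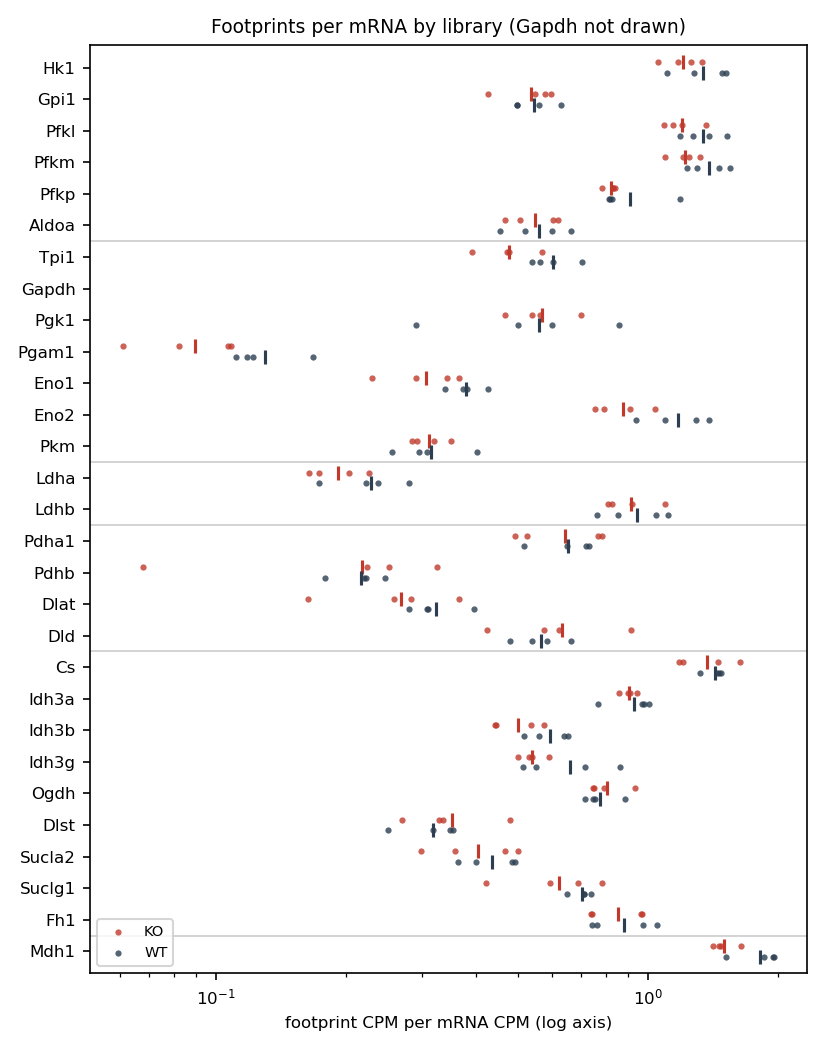
Footprint CPM per mRNA CPM of 28 enzymes on a log axis, 1 point per library number and a tick at the mean of 4, KO in red above WT in dark blue. Pgam1 is lowest, at 0.0609 to 0.108 in KO and 0.111 to 0.168 in WT, and Mdh1 highest in the mean, and Gapdh is left out.

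Paralogs that catalyse the same step were compared within each library, where no scaling between libraries enters. None of 8 ratios passed the test between genotypes (exact two-sided permutation test over 70 splits, smallest possible p = 0.0286), and every Benjamini-Hochberg adjusted p was 0.971. A single ratio could not pass after adjustment over 8. The log2 ratio of Ldha, the subunit that favours lactate, over Ldhb was −1.66 ± 0.23 in KO and −1.69 ± 0.13 in WT mRNA RPKM (SD, n = 4 each; exact p = 0.83). In footprints it was −3.91 ± 0.23 in KO and −3.74 ± 0.15 in WT (exact p = 0.257). Ldhb thus exceeded Ldha in both kinds of library and by more in footprints. Eno2 over Eno1, the enolase also found in glia, was 0.54 ± 0.12 in KO and 0.45 ± 0.15 in WT mRNA, and 2.06 ± 0.07 in KO and 2.06 ± 0.33 in WT footprints. Pfkm, the muscle-type subunit, made up 70.7% ± 2.03 of summed phosphofructokinase mRNA RPKM in KO and 71.0% ± 1.81 in WT, and 74.0% ± 2.88 of footprint RPKM in KO and 74.9% ± 2.19 in WT. These shares rest on the deposited gene lengths, 3340 bases for Pfkm, 6675 for Pfkl and 13401 for Pfkp. In CPM, mean mRNA of Pfkm, Pfkl and Pfkp was 378, 171 and 285 in KO and 350, 154 and 263 in WT. Their mean footprints were 461, 204 and 234 CPM in KO and 483, 205 and 238 CPM in WT. The log2 ratios also move with gene length, while their differences between genotypes do not.

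**Figure D5:**
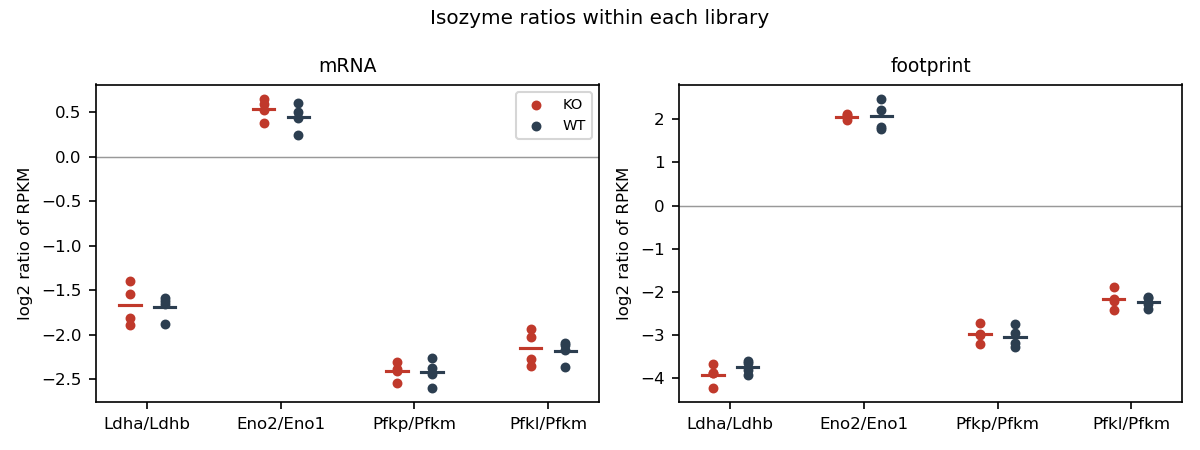
The log2 ratio of RPKM of paired isozymes in each library, KO in red left of WT in dark blue, with a line at the mean of 4. The vertical axes differ between the mRNA and footprint plots. KO and WT overlap in all 8 ratios.

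As a whole the 29 enzymes took 1.14% to 1.21% of protein-coding mRNA counts in KO libraries and 1.08% to 1.20% in WT libraries. They took 1.76% to 1.93% of protein-coding footprint counts in KO and 1.90% to 2.04% in WT. Both pairs of ranges overlap.

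Of 54 pathway neighbours outside the 29 enzymes, such as transporters, regulators and other isozymes, 46 were tested in mRNA, 39 in footprints and 40 in translational efficiency. None passed in any of them (edgeR). At an unadjusted p under 0.05, 8 of 46 were called in mRNA, where 10.5% of all genes were, 1 of 39 in footprints, where 5.52% were, and 5 of 40 in translational efficiency, where 10.8% were. Eno3, the muscle enolase, had the lowest mRNA p, with 2.56, 2.88, 2.22 and 2.14 CPM in KO against 3.92, 5.01, 3.77 and 3.46 in WT. All KO libraries were below all WT libraries, as for 2.74% of all genes, at a log2 fold change of −0.72 ± 0.19 (SE; adjusted p = 0.337, edgeR). Pgam2, the muscle mutase, had −0.52 ± 0.19 and Pdp1, the phosphatase that activates pyruvate dehydrogenase, 0.37 ± 0.13 (SE), both with an adjusted p of 0.406.

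Slc25a1, which exports citrate from mitochondria, had the lowest footprint p of the neighbours. Its footprints were 11.95, 11.88, 5.64 and 14.4 CPM in KO, against 21.1, 20.6, 25.1 and 23.6 in WT, without overlap, as for 3.61% of all genes in either direction. KO library 3, the lowest of these, held only 0.586 M footprint counts in all, so its value rests on few reads. The log2 fold change was −0.97 ± 0.29 in footprints (SE; adjusted p = 0.864), −0.31 ± 0.10 in mRNA (adjusted p = 0.397) and −0.64 ± 0.27 in translational efficiency (adjusted p = 0.397, edgeR). Pdk2, a kinase that inactivates pyruvate dehydrogenase, had −0.38 ± 0.19 in footprints, Idh1, the cytosolic isocitrate dehydrogenase, 0.38 ± 0.20, and Tigar, a fructose bisphosphatase, 0.68 ± 0.38 (SE), each with an adjusted p of 0.881. In translational efficiency Idh1 had the lowest p, with ratios of 0.854, 0.847, 0.861 and 1.16 in KO, against 0.642, 0.587, 0.755 and 0.588 in WT. Every KO library was above every WT library, at a log2 fold change of 0.58 ± 0.21 (SE; adjusted p = 0.346, edgeR). In either direction 4.54% of all genes were free of overlap. Bpgm, the bisphosphoglycerate mutase, had 0.65 ± 0.24 and Slc2a1, the glucose transporter of the blood-brain barrier, −0.49 ± 0.20 (SE), with adjusted p of 0.347 and 0.388.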

How the data were processed

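Footprint and mRNA libraries of brain, 4 KO and 4 WT of each kind, were compared. The deposited table holds raw gene counts made by the authors for 16 libraries, and the deposited RPKM tables hold the authors' values per kilobase of gene length and library size, with 1 library size per column. That size is not the sum of counts. In footprints it was 1.98 M for KO library 2, which held 1.30 M counts, and 0.850 M for KO library 1, which held 1.24 M. The RPKM values thus already carry a rescaling between libraries. TopHat2 and mm10 are named without version or role, per the submitters' processing notes, and the counting rule is not given in the sources used here. The counts went into edgeR 4.0.16 under R 4.3.3 (TMM, quasi-likelihood test, Benjamini-Hochberg, threshold 0.05). mRNA genes needed a mean RPKM of at least 1, footprint genes filterByExpr with a minimum count of 10, and translational efficiency, an interaction over all 16 libraries, a mean RPKM of 1 in both kinds. CPM uses the TMM library size, and list levels are the mean log2 CPM with a prior count of 2. Isozyme ratios were tested by exact permutation over 70 splits.

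The 29 enzymes, the neighbours, the marker lists and the tests were chosen with earlier results of these data known. All 29 are named. Of the neighbours, those past the threshold were to be named, or the 4 of lowest p if fewer passed. Slc6a3, Hcrt and the pseudogenes were chosen after their values were seen. Alternatives were DESeq2 1.42.0, RLE scaling, no filter, limma 3.58.1 on log2(RPKM + 0.1) and log2(RPKM + 1), protein-coding genes alone, a replicate block, and leaving out libraries. The labels do not say that equal numbers pair a KO with a WT library, so the main model has no block. The fits were tested on simulated data with known changes, placed in genes drawn at random from all genes tested. Of 1.5-fold changes they recovered 62% in mRNA, 5% in footprints and 10% in translational efficiency. Of 3-fold changes they recovered 94%, 72% and 77%. Of the calls 3.7%, 6.1% and 10.3% were false. For genes drawn at random, most 1.5-fold changes in footprints or translational efficiency would thus not pass. The enzymes had a lower median SE than all genes, at 0.176 against 0.294 in footprints and 0.166 against 0.298 in translational efficiency. Recovery for the enzymes themselves was not simulated. Read lengths and reading frame were not analysed here.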

Additional observations from a re-analysis of the deposited data

Results flagged for a closer look

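In 8 of 136 groups of 4 libraries, 1 library lay apart from the other 3 by more than Dixon's critical value at 95%, and chance flags about 1 in 20 groups. In mRNA, KO library 4 was highest for Gapdh, at 36.7 CPM against 3.00 to 5.31 in the other KO libraries, and for Ogdh, at 269 CPM against 249 to 252. KO library 3 was lowest for Eno2, at 907 CPM against 975 to 989, for Fh1, at 91.6 CPM against 104 in all other KO libraries, for Idh3a, at 231 CPM against 239 to 240, and for the second Aldoa row, at 0.556 CPM against 0.733 to 0.764. WT library 1 was highest for Idh3a, at 239 CPM against 224 to 226 in the other WT libraries. In footprints, KO library 2 was highest for the second Aldoa row, at 1.03 CPM from 2 reads against 0 in the other KO libraries. Of the 8, 4 fell in KO library 3 of mRNA. That library also had 31783 counts of the rRNA gene CT010467.1, against 3563 to 5287 in the other KO and 4513 to 5372 in the WT libraries. Lars2 had 4228 counts there, against 847 to 1020 in the other KO and 784 to 965 in the WT libraries, and the heat shock gene Hspa1b 644, against 143 to 169 and 118 to 232. Their part in the 4 values was not tested.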

How the results depend on the processing

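No enzyme passed the threshold under any alternative in any comparison. The lowest adjusted p over all settings was 0.304 in mRNA, 0.675 in footprints and 0.144 in translational efficiency, and the sign changed under some alternative for 9 of 30, 15 of 29 and 16 of 29 rows. Calls over all genes were 0 in all 3 comparisons. In mRNA they were 75 with DESeq2, 24 with no filter, and 0 to 2 on leaving out 1 library, the 2 being without KO library 4. In footprints they were 4 with DESeq2, 86 with no filter and 3 with protein-coding genes alone. In translational efficiency they were 150 with DESeq2, 2 with no filter, and 0 to 4 on leaving out 1 library, the 4 being without KO library 2. With the replicate block, translational efficiency had 1 call and mRNA and footprints none. The deviations of same-number KO and WT libraries correlated at −0.24 to 0.03 in mRNA and −0.25 to 0.07 in footprints. These few values gave no sign that equal numbers pair the samples, and they cannot exclude it. Without WT libraries 1 and 2, the median log2 fold change of the enzymes in translational efficiency was −0.045, Pfkm mRNA was −0.0033 in place of 0.11 and Hk1 translational efficiency 0.025 in place of −0.14. On leaving out 1 library Gapdh ran from −0.036 to 1.87 in mRNA and from −1.75 to 0.12 in translational efficiency, with the value nearest 0 in each case from leaving out KO library 4. The cause of the other shifts was not tested. The isozyme test says nothing about stability, since with so few libraries and 8 ratios a single ratio could not pass after adjustment. Footprint depth limits the precision, with 13 to 183 reads per library for Pgam1 and 504 reads over all 8 libraries for Pdhb.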
